A study of Caenorhabditis elegans with 8 samples.

Results

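The genes described here are those whose level in both Caenorhabditis elegans arrays labelled as the hpl-1, hpl-2, his-24 triple mutant lay beyond the levels in all 6 arrays of the 3 double mutants. There were 3834 such genes among 17092 genes tested and 20113 gene or transcript identifiers on the array. Of these, 2315 lay above all 6 double mutant arrays, or 13.5% of genes tested, and 1519 lay below all 6, or 8.89%. The members were picked by these values, so their number and direction are a description and carry no test. Every level below is the log2 processed signal minus the 75th percentile of its array, so a gene at 0 is as bright as that percentile and a gene at -5 is far dimmer.

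Total RNA came from pooled whole worms of the N2 background, grown at 21 °C in every group. It was hybridised to one-colour Agilent arrays with 2 samples per genotype. The deposited growth protocol gives the L4 and young adult stages, whereas the paper's methods give the L4 stage. By the labels the deletion alleles were tm1624 for hpl-1, tm1489 for hpl-2 and ok1024 for his-24, and the triple mutant carried all 3, although its hpl-1 probe read as in arrays without that deletion. The double mutants combined the same alleles in pairs, written here as hpl-1 his-24, as hpl-2; his-24 and as hpl-1; hpl-2. For hpl-1; hpl-2 the paper's table of sterility and vulval phenotypes names a different hpl-1 allele, while its expression summary names tm1624. As labelled, each double mutant lacks 1 deletion that the triple has, and each deletion is shared by the triple and a pair of the doubles. The comparison asks which genes read differently in the arrays labelled with all 3 deletions, with no wild type array among the samples. The sources used here give no more on how the duplicate samples were separated than that they were biological duplicates.

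HPL-1 and HPL-2 are the worm homologues of heterochromatin protein HP1, which binds methylated histone H3 lysine through its chromodomain and is best known for gene silencing in compact chromatin. HIS-24 is a linker histone of the H1 family, which binds the DNA between nucleosomes and helps to fold the chromatin fibre. In worms these proteins act in vulval, gonad and germ line development, where HPL-2 belongs to the synthetic multivulva class of repressors.

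The deleted genes were read first, as a check of the labels. The hpl-1 probe read -0.60 and -0.53 in the arrays labelled triple, -0.36 and -0.30 in hpl-1 his-24, -0.49 and -0.65 in hpl-2; his-24, but only -9.04 and -8.81 in the hpl-1; hpl-2 arrays. It was therefore dark only in hpl-1; hpl-2. This goes against the labels of the triple and of hpl-1 his-24 only if the probe lies within the deletion. The position of the probe was not checked, and the names used below are those of the labels. The his-24 probe read -9.13 and -9.16 in the triple, from -10.28 to -8.61 in the 4 arrays labelled as the other his-24 mutants, and 0.31 and 0.46 in hpl-1; hpl-2, as the labels say. The hpl-2 probe of transcript K01G5.2a read -1.08 and -1.09 in the triple, 0.43 and 0.52 in hpl-1 his-24, -1.22 and -1.12 in hpl-2; his-24, with values of -0.85 and -0.78 for hpl-1; hpl-2, so it was lower in all 3 hpl-2 genotypes without being dark. By these 3 probes the triple arrays did not stand apart from the hpl-2; his-24 arrays in any deleted gene. Replicate arrays correlated at 0.996 or more across genes in 3 genotypes, and at 0.986 in hpl-2; his-24. The hpl-2; his-24 arrays also lay alone on their slide and scan day, so their genotype and that slide cannot be told apart. The same holds for genotype and slide in hpl-1 his-24. Its arrays lay on slides with no other genotype used here, though scanned on the day of the triple. Only the triple and hpl-1; hpl-2 arrays shared slides, 2 of them.

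Against the mean of the 3 double genotypes, 414 genes were called higher in the triple, or 2.42% of genes tested, and 100 lower, or 0.585%. With hpl-1 his-24, whose hpl-1 probe was not dark, left out of the mean, 555 were called higher and 101 lower. A call required a Benjamini-Hochberg adjusted p below 0.05 in limma and a log2 difference beyond 1.5. The split towards higher genes, 80.5% of calls, was 67.5% after quantile normalization, 67.3% after normexp background correction, 61.4% in the authors' own normalized values and 68.6% among genes lit, that is well above background, everywhere. Of the called genes, 313 of 414 higher and 58 of 100 lower also lay beyond all 6 double mutant arrays. The other called genes overlapped a double mutant, hpl-1 and his-24 themselves among them. Without the fold requirement the adjusted p alone was passed by 3379 higher genes, 19.8%, and by 2328 lower genes, 13.6%.

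Most members differed little. The median difference was 0.85 for genes above the double mutants and -0.43 for genes below them, against 0.03 over all genes tested, and 1476 and 1367 of them differed by under 1. The gap between the nearest triple array and the nearest double mutant array had a median of 0.24 above and 0.12 below, and 575 and 674 genes cleared the double mutants by under 0.1. Another 1836 genes fell short of membership by under 0.1. At the edge, the called gene grd-2 cleared the highest double mutant array by 0.014 and wrt-4 missed it by 0.011 (a gap of -0.011), while str-262 passed the fold limit at 1.502 and col-96 missed it at 1.498.

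The double mutants differed among themselves in most of these genes. Among called members, the 6 double mutant arrays spanned a median of 2.51 log2 units where the triple was higher and 2.09 where it was lower, against 0.96 over all genes tested. The triple replicates of the same genes had median SDs of 0.08 and 0.10. The double mutant nearest to the triple was hpl-1 his-24 in 177 of the 313 called higher members, hpl-2; his-24 in 69, and in the other 67 it was hpl-1; hpl-2. Over all genes tested the nearest was hpl-2; his-24 in 27.2% and hpl-1; hpl-2 in 42.8%, with hpl-1 his-24 nearest in the rest. Among the 58 called lower members it was hpl-1 his-24 in 14, hpl-1; hpl-2 in 15, and hpl-2; his-24 in the remaining 29. The gap exceeded the whole span of the double mutants in 57 and 8 of these called genes. Only 110 of the 313 higher and 42 of the 58 lower members were lit on all 8 arrays. Spans and distances in the rest include levels not well above background. The lowest level well above background was -8.28 and -8.15 on the hpl-2; his-24 arrays, and -6.79 to -6.39 on the other double mutant arrays.

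The largest increases among genes lit on every array included a gene cluster on chromosome IV and genes of secreted proteins. cld-1 (C32H11.9) read 4.94 and 4.83 in the triple, and in the double mutants ran from -2.66 through a median of -0.74 to 2.75. The hpl-1 his-24 arrays were the highest of the 6, and the gap to them was 2.08. The difference from the double mutant mean was 5.11 ± 0.52 (SE), a 34.6-fold higher level (limma adjusted p = 0.00111).

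Neighbours of cld-1 in the same C32H11 group rose with tighter double mutants. C32H11.4 read 3.49 and 3.48 in the triple against a double mutant range of -0.43 to 0.75 with a median of -0.13, a difference of 3.48 ± 0.12 (SE, adjusted p = 2.71e-05 in limma). C32H11.3 read 2.72 and 2.74 against -1.19 to -0.01 with a median of -0.73, a difference of 3.45 ± 0.14. In both genes the 6 double mutant arrays spanned 1.18, against 5.41 in cld-1 and a median of 0.96 over all genes tested. The triple stood 2.73 above the highest of them. dod-24 (C32H11.12), a gene named for lying downstream of the insulin pathway factor DAF-16, read 4.12 and 4.09 against 0.52 to 2.49 with a median of 2.00, a 5.14-fold higher level.

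A pair of C-type lectin genes on chromosome II, members of a family of sugar-binding secreted proteins, followed. clec-3 read 0.20 and 0.15 in the triple against -5.36 to -1.97 with a median of -4.57, and clec-2 read -0.82 and -0.80 against -6.04 to -3.12 with a median of -5.36. In both, hpl-1 his-24 was the highest double mutant and the other 4 arrays lay lower, and the differences were 4.04 ± 0.17 and 3.93 ± 0.18 (SE). The cuticle collagen gene col-137 read 0.78 and 0.76 against -6.98 to -1.33 with a median of -1.87, with hpl-2; his-24 far below the other doubles, and was 16.7-fold higher.

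C07G1.7 and Y49G5A.1 showed other orders among the double mutants. C07G1.7 read 0.93 in both triple arrays against -5.15 to -1.33 with a median of -4.51, a difference of 4.57 ± 0.08 (SE), and here hpl-2; his-24 was the nearest. Y49G5A.1 read 3.43 and 3.33 against -3.24 to 2.50 with a median of 0.66. Its triple level was 11.3-fold above the double mutant mean but only 0.83 above the nearest array, again of hpl-2; his-24. F57G8.7 and F26D2.16 completed the 10 largest, at differences of 3.30 and 3.25.

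**Figure D1:**
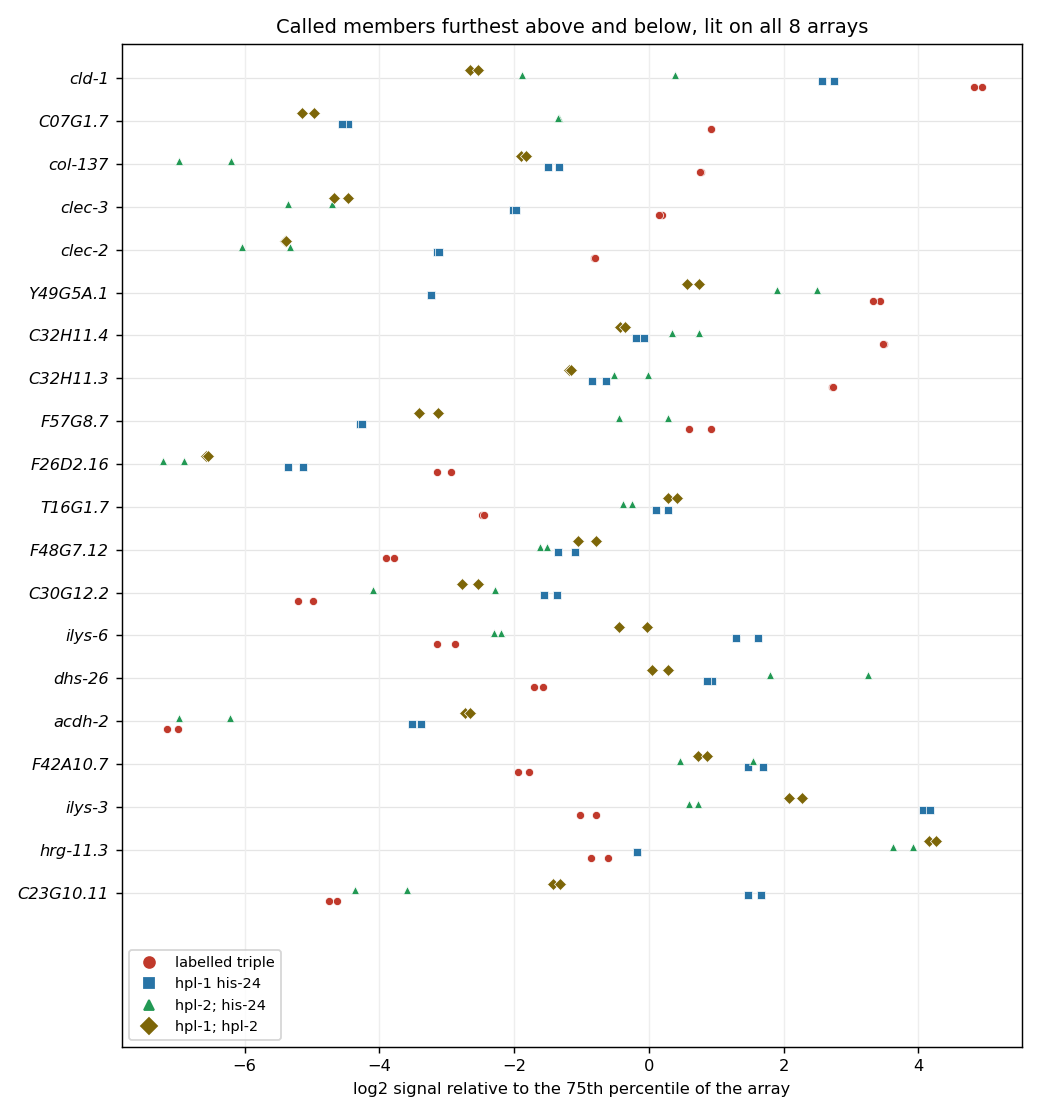
Level in each array of the 10 genes furthest above and the 10 furthest below the double mutants, among called members lit on all 8 arrays, as log2 signal relative to the 75th percentile of the array, with 1 symbol per array and 1 colour per labelled genotype. The 2 triple arrays lie beyond every double mutant array in each gene, by 2.73 in C32H11.4 and by 0.02 in acdh-2.

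Genes furthest below the double mutants included lysozymes, a defence enzyme family that cleaves bacterial cell walls. ilys-3, an invertebrate-type lysozyme gene, read -0.78 and -1.02 in the triple against 0.60 to 4.17 with a median of 2.17, and ilys-6 read -2.88 and -3.14 against -2.30 to 1.62 with a median of -0.24. In both, hpl-1 his-24 was the highest genotype and hpl-2; his-24 the lowest of the doubles, and neither overlapped the triple. The triple was 9.33-fold lower for ilys-3 (difference -3.22 ± 0.10 SE) and 6.35-fold lower for ilys-6 (-2.67 ± 0.15).

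The other decreases were of mixed kinds. F42A10.7 read -1.78 and -1.94 in the triple against 0.46 to 1.70 with a median of 1.16, T16G1.7 read -2.48 and -2.45 against -0.39 to 0.42 with a median of 0.19, and F48G7.12 read -3.78 and -3.90 against -1.62 to -0.79 with a median of -1.22. The double mutants spanned under 1 log2 unit in T16G1.7 and F48G7.12 and 1.24 in F42A10.7, and the differences in the order given were -2.98, -2.54 and -2.60. dhs-26, a short-chain dehydrogenase gene, read -1.70 and -1.57 against 0.05 to 3.26 with a median of 0.90 and was 7.13-fold lower. By contrast C23G10.11 (difference -3.43), hrg-11.3 (-3.33) and the acyl-CoA dehydrogenase gene acdh-2 (-2.83) had a double mutant close to the triple, with gaps of 0.28, 0.42 and 0.02.

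Some genes were lit on one side only, where a measured difference is a bound. Among called higher members, 110 were lit on all 8 arrays, 50 were lit in both triple arrays and in no double mutant array, and 153 lay in between. These 50 entered the test through the triple arrays alone, so their number lends no support. The same holds for any of the 153 lit on both arrays of no double mutant genotype. Y102E9.3 read -4.20 and -4.43 in the triple and between -9.50 and -8.58 in the double mutants, which were not well above background, and was at least 7.09-fold higher. F22B3.7 was at least 6.89-fold and the collagen gene col-148 at least 4.83-fold higher. The bound sets the mean level of the bright group against the lowest signal well above background on each dim array.

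In the other direction 7 called genes were lit in all double mutant arrays and neither triple array. fmo-2, a flavin-containing monooxygenase gene, read -7.32 and -7.03 in the triple, -1.24 and -1.15 in hpl-1 his-24, -6.07 and -6.61 in hpl-2; his-24, with values of -3.67 and -3.66 for hpl-1; hpl-2. The triple was at least 10.3-fold lower than the double mutant mean, with hpl-2; his-24 close above it. lact-6, a beta-lactamase-like gene, was at least 5.83-fold and ZK218.1 at least 4.71-fold lower.

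Treating the 6 double mutant arrays as 1 group, so that their differences count as error, is a stricter comparison. Its p-values still count duplicate arrays of a genotype as independent, and the triple is 1 genotype. The comparison left 33 genes called higher and 6 called lower, all of them members, and 17 of these 39 were lit everywhere. Another 12 were lit in the triple only and so entered the test through the triple arrays alone. Genes lit on only 3 arrays, such as scl-13, entered through 1 genotype alone as well. C32H11.3, C32H11.4, T16G1.7, F48G7.12 and F42A10.7 were among the 39, while cld-1, clec-2, clec-3 and ilys-3 were not. Several others were chosen here after their values were seen, as the bright genes of this set. asp-12, an aspartyl protease gene, read 3.04 and 3.00 in the triple against 0.71 to 1.31 with a median of 1.09 and was 3.84-fold higher (limma adjusted p = 0.0117 with the doubles as 1 group). gst-38, a glutathione S-transferase gene, read 2.64 and 2.67 against 0.15 to 0.94 with a median of 0.65 and was 4.18-fold higher. asm-3, an acid sphingomyelinase gene, read -1.41 and -1.22 against 0.13 to 1.02 with a median of 0.40 and was 3.39-fold lower. In each gene the 6 double mutant arrays spanned under 1 log2 unit, with the triple clear of them.

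The same set held Y51H7C.13 (2.16 higher), K03D3.5 (2.87), F55G11.2 (1.59), the cytochrome gene cyp-14A4 (2.25) and the collagen gene col-64 (2.00). T16G1.6, next to T16G1.7 in name, was the other bright gene called lower, at -2.42 and -2.41 in the triple against -0.24 to 0.47. Dimmer members of the set were F14F9.2, at -2.35 and -2.33 against -7.66 to -5.54, and scl-13, at -5.31 and -5.30 against -9.39 to -7.83. Of the 8 arrays, scl-13 was lit on only 3.

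**Figure D2:**
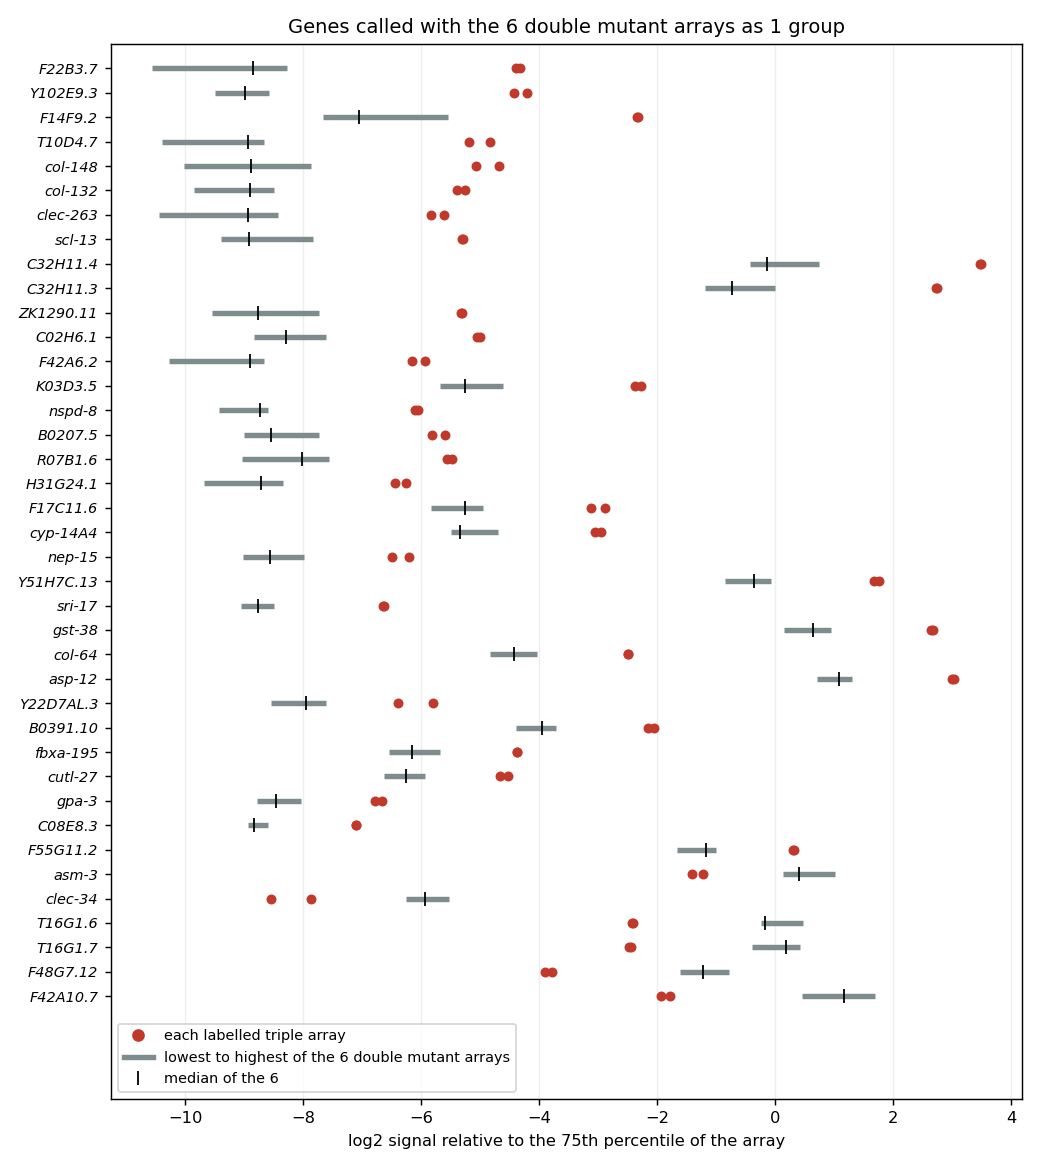
The 39 genes called when the 6 double mutant arrays form 1 group, with each triple array as a point, the lowest to highest double mutant array as a grey bar and their median as a black tick, in log2 signal relative to the 75th percentile of the array. The bars of C32H11.3 and asp-12 end at -0.01 and 1.31, and both triple points lie right of them.

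Chromatin genes contributed few members. Of 8 linker histone genes tested, hil-7 lay above all 6 double mutant arrays, at -0.16 and -0.14 in the triple against -2.13 to -0.76 with a median of -1.41, a difference of 1.31 ± 0.17 (SE, adjusted p = 0.00269 in limma). hil-6 and hil-4 lay below by margins of 0.02 and 0.01, neither passed the test (adjusted p = 0.0576 and 0.0999), and both lost this place after quantile normalization and in the authors' values. Of 37 core histone genes 1 lay above (2.7%) and 5 below (13.5%), against 13.5% and 8.89% of all genes tested. Among them his-70 was 1.09 higher and his-41 0.60 lower (difference -0.60). The count below was 16 without triple replicate 1 and 2 after quantile normalization.

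Among 27 repressors of the synthetic multivulva, H3K9 and Polycomb-like classes none lay above and 2 below (7.41%, against 8.89% of all genes tested). The count below was 4 without hpl-1 his-24 replicate 2 and 5 without triple replicate 2. set-25, an H3K9 methyltransferase gene, read -5.09 and -5.30 against -4.97 to -4.47. Its difference was -0.46 (adjusted p = 0.034 in limma, 0.0528 with the replicate block), and lin-52 cleared the doubles by under 0.01. Of 6 Hox genes tested only lin-39 was a member, at -2.76 in both triple arrays against -2.71 to -2.33, a difference of -0.26 (adjusted p = 0.0465 in limma, 0.0734 with the replicate block). mab-5 differed by 0.29 (adjusted p = 0.175) and egl-5 by 0.09 (0.617), with the triple arrays inside the double mutant range, and the sign of egl-5 turned under other scalings. Of 23 Argonaute genes 3 lay above and none below, namely wago-10 (1.19), alg-3 (0.85) and alg-4 (0.77), of which alg-3 and alg-4 are known for small RNA pathways of sperm development and alg-4 did not pass the test (adjusted p = 0.0742).

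**Figure D3:**
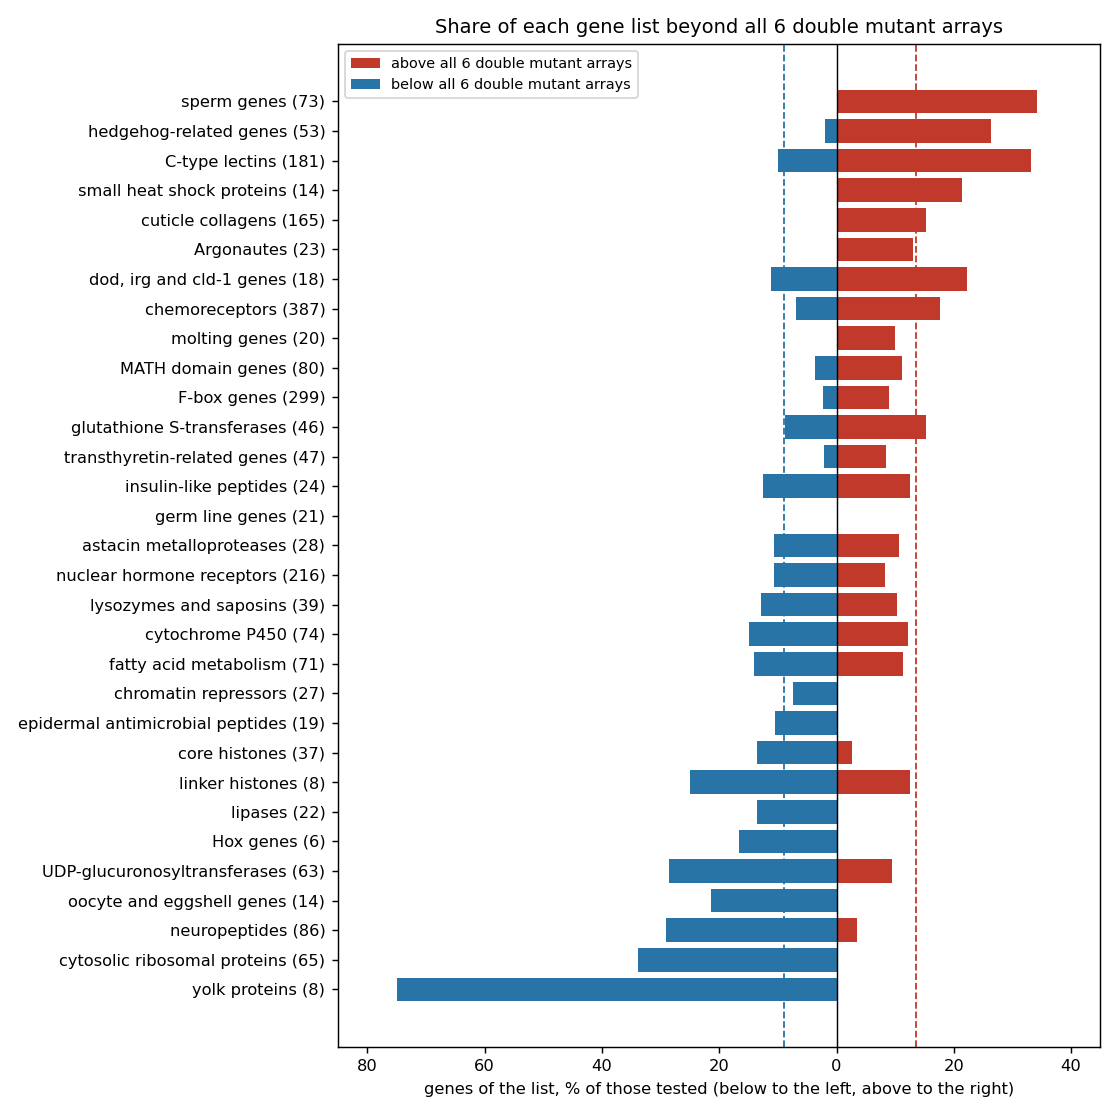
Share of each gene list, in percent of the genes tested (number in brackets), that lay above all 6 double mutant arrays (red, to the right) or below them (blue, to the left), with dashed lines at the shares over all genes tested, 13.5% and 8.89%. The yolk proteins stand at 75% below, and the sperm genes at 34.2% and C-type lectins at 33.1% above.

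Members among cuticle collagens and hedgehog-related genes lay mostly above the double mutants. Cuticle collagens build the exoskeleton and are made in pulses at each molt. Of 165 tested, 25 lay above all 6 arrays (15.2%, against 13.5% of all genes tested) and none below (against 8.89%). In this list 22 were called higher and 1 lower, against 2.42% and 0.585% of all genes tested, and the median difference was 0.57. Against the single genotypes the median was -0.43 from hpl-1 his-24, 1.52 from hpl-2; his-24 and 0.55 from hpl-1; hpl-2, so the list as a whole read below hpl-1 his-24. Without the hpl-1 his-24 arrays 99 collagens lay above the remaining double mutants, and after quantile normalization 43 lay above all 6. The count below was 11 without hpl-1; hpl-2 replicate 1, 8 without triple replicate 1 and 15 without both hpl-1; hpl-2 arrays. col-49 shows the pattern, with 1.22 and 1.09 in the triple, 0.59 and 0.62 in hpl-1 his-24, -0.58 and -0.51 in hpl-1; hpl-2, and -9.95 and -7.28 in hpl-2; his-24, of which the first was not well above background.

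Hedgehog-related genes are worm relatives of a secreted signal family and are active in epidermis and molting. They had 14 of 53 above (26.4%) and 1 below (1.89%), with a median of 0.77. In all 10 were called higher, against 2.42% of all genes tested. As in the collagens the sign turned for 1 genotype, with medians of -0.45 from hpl-1 his-24, 1.58 from hpl-2; his-24 and 0.75 from hpl-1; hpl-2. wrt-6 read 0.04 and 0.01 in the triple against -3.84 to -0.08 with a median of -1.60, and grl-5 read 0.45 and 0.44 against -4.39 to -0.01. The nearest arrays were those of hpl-1 his-24, cleared by 0.09 in wrt-6 and by 0.45 in grl-5, and both genes lay far above hpl-2; his-24. Among 20 molting genes 2 lay above (5 without triple replicate 1), mltn-12 (1.34) and mlt-10 (1.15, adjusted p = 0.0636), and astacin metalloproteases had 3 above and 3 below of 28. The summed level of 8 epidermal marker genes or transcripts ran from 7.56 to 8.40 times the 75th percentile in the triple, 11.7 to 12.3 in hpl-1 his-24, 2.90 to 5.46 in hpl-2; his-24, with a range of 7.06 to 7.15 for hpl-1; hpl-2. Several of these markers also belong to the collagen, hedgehog-related and molting lists, so the sum is not independent of them. Of the 2 adult epidermal collagen genes neither was a member. col-19 differed by 0.05 ± 0.21 (SE, adjusted p = 0.858 in limma), and col-7, at 4.80 and 3.89 in the triple against 4.64 to 5.51, differed by -0.87 (0.0478). Whether stage or epidermal content had a part in these differences was not tested, and in whole worms fewer cells of a type and less RNA per cell cannot be told apart.

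Members among immune effector genes lay on both sides of the double mutants. Of 181 C-type lectins 60 lay above all 6 arrays (33.1%) and 18 below (9.94%), with 39 called higher and 10 lower. Over all genes tested 2.42% were called higher and 0.585% lower. clec-138 and clec-137 were lit in the triple and in hpl-1 his-24, and the other 4 double mutant arrays were not well above background. clec-138 read -3.19 and -3.09 in the triple against -4.19 and -4.58 in hpl-1 his-24, and clec-137 read -3.28 and -3.38 against -4.82 and -4.80. Their differences from hpl-1 his-24 alone were 1.25 and 1.48 (adjusted p = 0.00207 and 8.31e-05 in limma). clec-34 went the other way, at -7.86 and -8.55 against -6.26 to -5.53, at least 2.29-fold lower. Among 39 lysozymes and saposins 4 lay above (10.3%) and 5 below (12.8%), against 13.5% and 8.89% of all genes tested. Invertebrate lysozyme genes made up 4 of the 5 below. Without triple replicate 1 the count below was 10. Beside ilys-3 and ilys-6, ilys-2 read 0.69 and 0.37 against 1.56 to 3.23 (difference -1.92), and ilys-5 read 3.70 and 3.68 against 4.41 to 5.94 (difference -1.499).

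The 18 dod, irg and cld-1 genes held 4 above (22.2%) and 2 below (11.1%), against 13.5% and 8.89% of all genes tested. The infection response gene irg-3 read 1.73 and 1.39 against -0.53 to 0.24 and dod-20 read -1.42 and -1.51 against -3.52 to -2.67, which were 3.34-fold and 3.14-fold higher. Of 14 small heat shock protein genes 3 lay above (21.4%, against 13.5% of all genes tested). Among them hsp-16.2 read 1.43 and 1.37 against -1.76 to 0.71, and hsp-16.41 read 2.19 and 2.20 against -0.55 to 2.09. In both of these hpl-2; his-24 was nearest to the triple and hpl-1 his-24 lay far below. The epidermal antimicrobial peptides had none above and 2 below of 19 (10.5%, near the 8.89% of all genes tested). These were cnc-2 (-1.58) and cnc-8 (-0.45), and 8 lay below without triple replicate 1. The median over this list was -0.5.

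Detoxification and fat metabolism genes had members on both sides, to be set against 13.5% above and 8.89% below over all genes tested. UDP-glucuronosyltransferases, which conjugate toxic compounds with sugar, had 6 above (9.52%) and 18 below (28.6%) of 63, with a median of -0.27. ugt-8 read -3.55 and -3.10 against -2.55 to -0.75, ugt-25 read -1.58 and -1.54 against -0.93 to 1.41, and they were 3.58-fold and 3.12-fold lower, while ugt-19 was 2.68-fold higher. Cytochrome P450 genes had 9 above (12.2%) and 11 below (14.9%) of 74. Among these, cyp-35C1 read 0.79 and 0.69 against 1.42 to 3.84, and cyp-33C1 read -5.18 and -5.19 against -8.89 to -5.77. Glutathione S-transferases had 7 above (15.2%) and 4 below (8.7%) of 46, among them gst-13 (1.66 higher) and gst-4 (1.04). In 71 genes of fatty acid synthesis, binding and oxidation 8 lay above (11.3%) and 10 below (14.1%). There fat-3, the delta-6 desaturase gene, read 2.22 and 2.26 against 2.82 to 4.35, 2.36-fold lower. The count below was 17 in this list and 9 in the glutathione S-transferases without triple replicate 1. Lipases had none above and 3 below of 22 (13.6%), and 6 below after quantile normalization.

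Yolk proteins were the list with the largest share of members. The list held 8 genes or transcripts, the yolk receptor gene rme-2 among them. Of these 8, 6 lay below all 6 double mutant arrays (75%), all 6 passed the adjusted p and none reached the fold limit. The median over the list was -0.82, but -0.52 after quantile normalization and -0.53 in the authors' values, with 5 below in each. vit-1 read 4.47 and 4.59 in the triple against 4.96 to 6.0 with a median of 5.75, a difference of -1.04 ± 0.08 (SE, adjusted p = 0.000357 in limma). vit-6 read -1.42 and -1.54 against -0.82 to -0.40 with a median of -0.51, a difference of -0.92 ± 0.12, and here all 3 double genotypes lay together. vit-3 (-1.11), vit-4 (-0.82), vit-5 (-0.60) and rme-2 (-0.36), the oocyte yolk receptor gene, were the others, and in vit-1, vit-3 and vit-4 the nearest double mutant was hpl-1; hpl-2. The vit genes are near copies of each other, so their probes may share signal. The summed level of 9 marker genes or transcripts of the intestine, the tissue that makes yolk, was 85.9 and 87.0 in the triple, 132.0 to 140.0 in hpl-1 his-24, 79.8 to 86.7 in hpl-2; his-24, with a range of 90.2 to 118.0 for hpl-1; hpl-2, and its part was not tested.

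All members among the sperm genes lay above the double mutants. Of 73 tested, 25 lay above all 6 arrays (34.2%) and none below. The adjusted p was passed by 26, all higher, against 19.8% of all genes tested. The list takes in whole gene families such as msp and nspd, whose probes may share signal as those of the vit genes may. spe-42 read -4.54 and -4.43 in the triple against -6.94 to -5.36 with a median of -5.53, and spe-49 read -4.04 and -3.83 against -6.24 to -4.59. The triple was above every double mutant array in both genes, at differences of 1.34 and 1.28, with hpl-2; his-24 lowest on average. nspd-8, of a nematode-specific sperm peptide family, was lit in the triple only, at least 2.10-fold higher. Over the list the median difference was 0.47, with 1.01 from hpl-2; his-24, 0.08 from hpl-1 his-24, and 0.12 when set against hpl-1; hpl-2. The count above was 44 without triple replicate 2 and 41 after quantile normalization. Oocyte and eggshell genes had none above and 3 below of 14, each by a gap under 0.1 and none of them below after quantile normalization, and none of 21 germ line genes or 7 early embryo markers was a member.

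**Figure D4:**
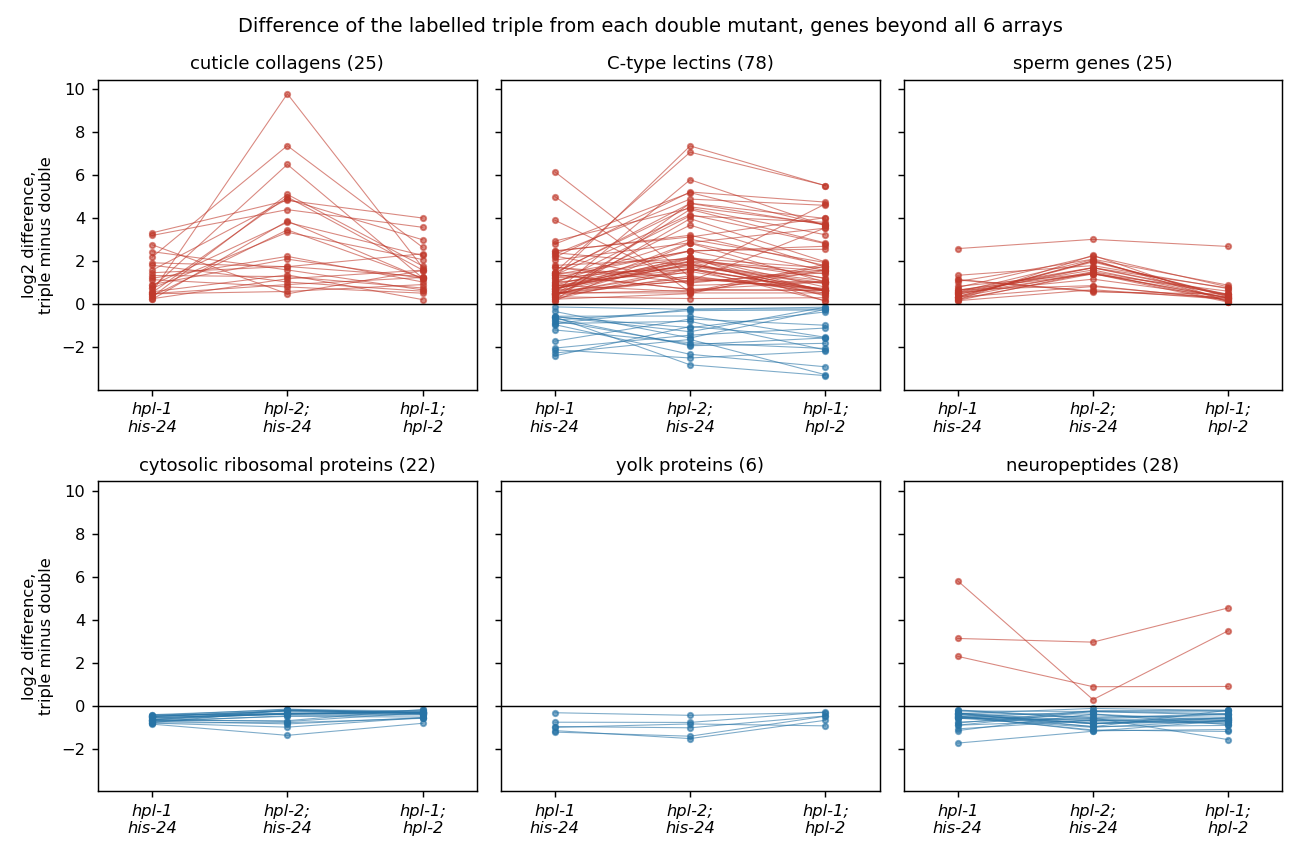
Log2 difference of the triple from each double mutant genotype for the genes of 6 lists that lay beyond all 6 double mutant arrays, 1 line per gene, red where above and blue where below. Most sperm and many collagen lines peak at hpl-2; his-24, where col-49 reaches 9.77 with 1 of the hpl-2; his-24 arrays not well above background, whereas the ribosomal lines vary little between genotypes.

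Members among the neuropeptide genes, which encode secreted neural signals, lay mostly below. Among 86 genes or transcripts 25 lay below all 6 arrays (29.1%) and 3 above (3.49%), and the median was -0.33. Of the 86, 38 passed the adjusted p downwards and 3 upwards, against 13.6% and 19.8% of all genes tested. nlp-59 read -2.72 and -2.57 in the triple against -1.99 to -0.90 with a median of -1.46, a difference of -1.20 ± 0.08 (SE). flp-3 (-0.94), nlp-3 (-0.91), nlp-5 (-0.83) and flp-11 (-0.63) were among the others, and flp-11 was counted through 3 transcripts. Of 13 neuronal marker genes or transcripts, where a gene can enter more than once, 3 lay below and none above. Their summed level was 16 to 16.2 in the triple, 19.5 to 19.7 in hpl-1 his-24, 21.2 to 22.4 in hpl-2; his-24, with a range of 15.8 to 17.3 for hpl-1; hpl-2, and their part was not tested.

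The 3 neuropeptide genes above the doubles differed widely among the double mutants. nlp-4 read 0.80 and 0.62 in the triple, -5.17 and -5.04 in hpl-1 his-24, 0.41 and 0.43 in hpl-2; his-24, with values of -2.83 and -2.73 for hpl-1; hpl-2. flp-23 read -4.21 and -4.77 against -9.14 to -7.39. Among 24 insulin-like peptide genes 3 lay above and 3 below (12.5% each way), but 2 and 6 after quantile normalization and 2 and 7 in the authors' values. Among members ins-31 had the highest fitted difference, at -1.27 and -1.32 in the triple, -3.05 and -3.11 in hpl-1 his-24 and -10.09 to -8.67 in the other double mutants. Its difference of 5.83 rests on those 4 arrays, 3 of them not well above background, and that from hpl-1 his-24 alone was 1.78.

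Markers of male sensory neurons, which bear on whether males were among the pooled worms, did not form members, but their summed level was 0.576 to 0.605 in the triple, 0.157 to 0.176 in hpl-1 his-24, 0.519 to 1.05 in hpl-2; his-24, with a range of 0.0979 to 0.10 for hpl-1; hpl-2. Of 7 tested, 3 were called higher, against 2.42% of all genes tested. Of 9 such markers on the array 2 were not well above background in the triple and 1 in no array. Their part in the sperm and neural results was not tested.

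The large gene families of receptors and ubiquitin adaptors had counts that moved with the scaling. Of 387 chemoreceptor genes tested, out of 1355 on the array, 68 lay above (17.6%) and 27 below (6.98%), against 13.5% and 8.89% of all genes tested. After quantile normalization 38 lay above and 44 below. F-box genes had 27 above (9.03%) and 7 below (2.34%) of 299, and 16 each way after quantile normalization. Nuclear hormone receptors had 18 above (8.33%) and 23 below (10.6%) of 216, and 8 and 36 after quantile normalization. Without triple replicate 1 the receptors of this last family had 38 above, and without triple replicate 2 they had 38 below. The counts below without triple replicate 1 were 46 for chemoreceptors and 17 for F-box genes. Single members stood further out. fbxa-195 read -4.38 and -4.37 against -6.55 to -5.68, and str-209, a chemoreceptor gene, read -2.96 and -2.98 against -3.95 to -3.37 in 4 arrays and -9.07 and -8.70 in hpl-1 his-24. MATH domain genes had 9 above and 3 below of 80, and 7 each way after quantile normalization, with bath-46 1.55 higher. Transthyretin-related genes had 4 above (8.51%) and 1 below (2.13%) of 47, and 6 below without triple replicate 1.

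Cytosolic ribosomal protein genes, which are among the brightest on the array, lay low in the triple by small amounts. Of 65, 22 lay below all 6 arrays (33.8%) and none above. The adjusted p was passed by 27, all lower, against 13.6% of all genes tested, and none reached the fold limit. The median of -0.39 shrank to -0.09 after quantile normalization, where 12 lay below. The count was 57 without hpl-1; hpl-2 replicate 1 and 51 without triple replicate 1. rpl-5 read 2.75 and 2.68 in the triple against 3.22 to 3.55 with a median of 3.46, a difference of -0.72 ± 0.08 (SE, adjusted p = 0.00157 in limma), and rps-20 read 4.22 and 3.19 against 4.25 to 5.09, with its triple arrays further apart than most of the double mutants.

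Some members stood next to each other on the chromosome. Of the 2273 genes above the double mutants that could be placed in order, 896 (39.4%) had another such gene as the adjacent tested gene, and of 1471 below 387 (26.3%) did. Runs of 3 or more numbered 99 above and 28 below, the longest of 8 and 5 genes. No expected number was computed for these runs, and neighbouring family members can share sequence. The longest run, on chromosome II, held nep-19, nep-20, nep-9, nep-10, nep-8, F18A12.2 and nep-6 and an unnamed probe, mostly neprilysin-like metallopeptidase genes. nep-8 read -1.15 and -1.09 in the triple against -4.0 to -1.56 with a median of -2.09, and differences along the run were 0.76 to 1.22, with hpl-2; his-24 lowest in all of the nep genes.

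A run of 6 genes elsewhere on chromosome II, from F43C11.2 to F16G10.10, was mostly dark in the double mutants. F43C11.2 read -5.12 and -5.27 in the triple against -10.50 to -7.41 and was at least 3.87-fold higher, while F16G10.5 was lit on all arrays and 0.91 higher. A run of 6 on chromosome V held the nuclear hormone receptor genes nhr-132 and nhr-155, C14C6.3, gtnt-7, C14C6.7 and gtnt-8. The triple and hpl-1 his-24 lay closest in most of them, as in gtnt-7, at -4.50 and -4.44 in the triple, -5.20 and -5.61 in hpl-1 his-24 and -9.98 to -8.83 in the others. Across the nuclear chromosomes, the share of genes above all 6 arrays ran from 10.1% on X to 16.5% on IV, and the share below from 7.59% on X to 9.68% on V.

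**Figure D5:**
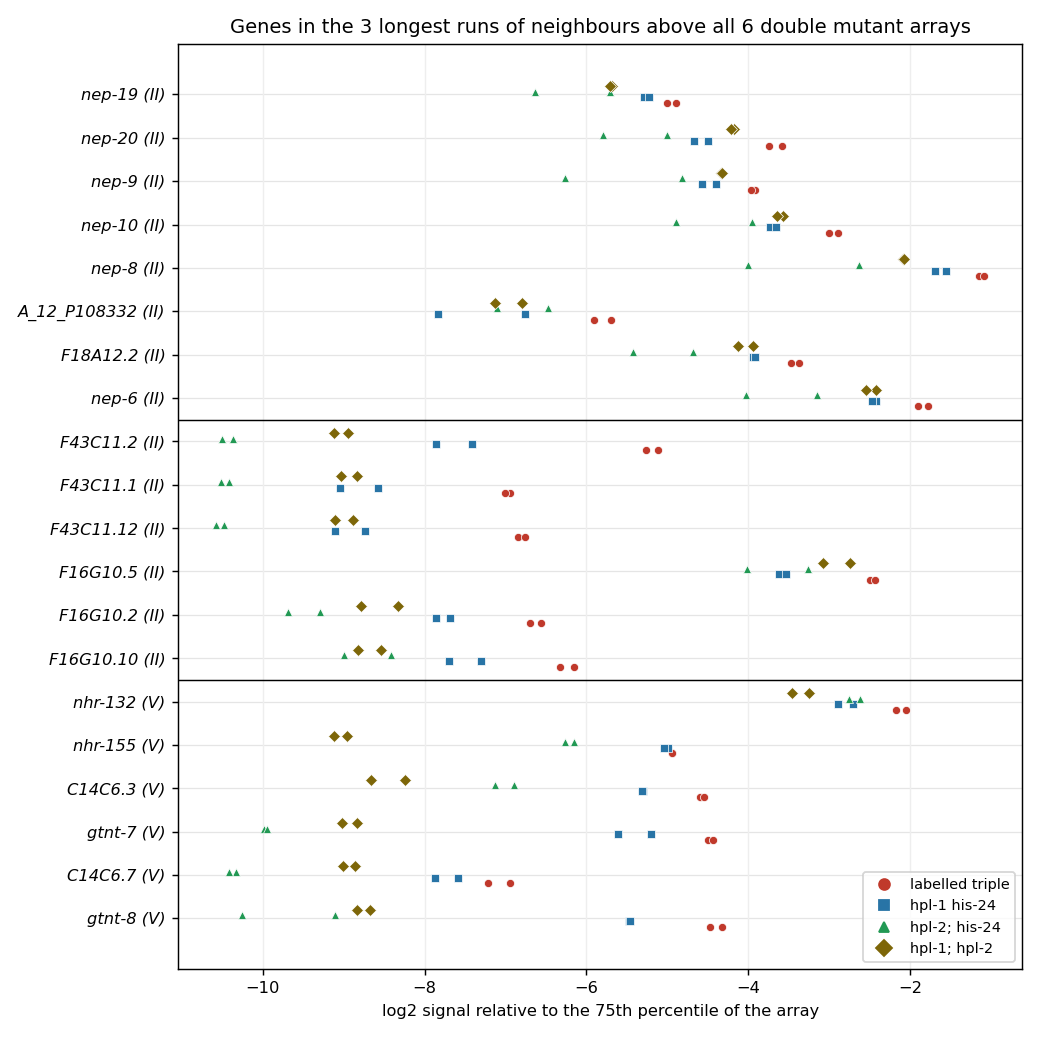
Level in each of the 8 arrays, as log2 signal relative to the 75th percentile of the array, for the 20 genes in the 3 longest runs of neighbouring genes above all 6 double mutant arrays, with runs divided by black lines and the chromosome in brackets. In the run on chromosome V the hpl-1 his-24 squares lie close to the triple, 0.04 below it in nhr-155.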

How the data were processed

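Per the file headers, the deposited intensities (gProcessedSignal) came from Agilent Feature Extraction 9.5.3.1, which subtracts background. The authors also deposited log2 values with each gene's quantile-normalized level, used here as an alternative. Signals were divided by the 75th percentile of 42964 non-control spots per array and log2-transformed. Outlier spots, 92 to 238 per array, were dropped, spots of a probe averaged, and the brightest of several probes kept for 282 identifiers. Genes were tested when well above background on both arrays of a genotype. limma 3.58.1 (R 4.3.3) fitted all 8 arrays by genotype, with 4 residual degrees of freedom, and contrasted the triple with the equally weighed double genotypes. P-values measure the spread between the labelled duplicates, and 2 arrays per genotype limit the precision. At the 75th percentile signals were 4613 to 8501 against backgrounds of 48.0 to 56.5, and 77.3 to 84.7% of probes were well above background. Symbols came from RefSeq for 18789 of 20113 identifiers.

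The members, lists and tests were chosen with earlier results of these data known. Named genes were the deleted genes, the 10 highest and 10 lowest called members lit on all arrays, the 3 brightest lit on one side only, up to 4 members of each list by size of difference, Hox and linker histone genes, and the 3 longest runs. Others are said to be chosen after their values were seen, or illustrate a list. The fit was tested on simulated data. Replicate numbers were not used as pairs, and deviations of same-numbered arrays correlated from -0.30 to 0.18 between genotypes. The -0.30 was between the triple and hpl-1; hpl-2, which shared 2 slides in opposite replicate order, so by slide this correlation was positive. The main fit held no slide term. With slide as a random block 414 genes were called higher and 99 lower.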

Additional observations from a re-analysis of the deposited data

How the results depend on the processing

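The 414 genes called higher became 144 with normexp background correction, 129 in the authors' values, 144 among genes lit on all 8 arrays, 33 with the 6 double mutant arrays as 1 group and 3379 by adjusted p alone. The 100 called lower became 66 among genes lit on all arrays, 223 against hpl-1; hpl-2 within shared slides, 218 without hpl-2; his-24, 6 with the doubles as 1 group and 2328 by adjusted p alone. Genes above all double mutant arrays numbered 6340 within shared slides, 3646 without hpl-1 his-24 and 3977 without hpl-2; his-24, and genes below numbered 5966, 3066 and 3141, and 2354 without hpl-1; hpl-2, since fewer arrays then set the range. Leaving out 1 array gave 2428 to 3173 genes above, 1654 to 2429 below, 360 to 463 called higher and 86 to 116 called lower, with 2429 below without triple replicate 1. With the replicate number as a block 412 and 99 genes were called.

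Of 167 named genes tested, 158 kept their sign in every alternative run on them, and 96 of 149 past the adjusted p stayed past it. The sign turned for hil-4 (0.05 in the authors' values), and after quantile normalization and in the authors' values for cpg-1 (0.06, 0.09), puf-5 (0.01, 0.03), nob-1 (-0.02, -0.07) and hil-5 (0.03, 0.08). With quantile normalization, normexp and the authors' values in turn it was -0.19, -0.02 and -0.15 for egl-5, -0.07, -0.03 and -0.12 for ceh-13, and -0.40, -0.18 and -0.19 for php-3. Without single arrays it ran from -0.02 to 0.12 for ceh-13, -0.18 to 0.24 for php-3, and -0.06 to 0.16 for col-19. The cause was not tested. Dim genes limit precision, and 14991 of 17092 genes tested were well above background on all 8 arrays.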
